A study of Rattus norvegicus with 68 samples.

Results

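Nasal epithelial cells of rats that breathed 15 ppm formaldehyde for 13 w were compared here directly with cells of rats that breathed the same dose for 4 w. The members are the 8 arrays whose labels give that dose and those times, 4 of 13 w and 4 of 4 w, out of 68 in the series, and no measured value was used to choose them. The series exposed rats to 0, 0.7, 2, 6, 10 or 15 ppm for 5 d, 4 w or 13 w, and measured RNA on single-colour Affymetrix Rat230_2 arrays, 1 animal per array. The comparison asks what still changed in the lining of the nose between 4 w and 13 w at 1 constant high dose. The same time difference at 0.7 ppm, again 4 arrays of 13 w and 4 of 4 w, served as a check on changes that came with time at a low dose.

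All animals were male F344/CrlBR rats, 8 weeks old at the start, which inhaled formaldehyde with the whole body exposed, 6 h a day and 5 days a week. The 13 w rats were therefore older at sampling than the 4 w rats, so length of exposure and age cannot be told apart at 15 ppm alone. Unexposed rats of 4 w were not analysed here, so both groups of the low-dose check had themselves been exposed. Per the labels, the cells were freed with proteases from the lateral meatus and nasoturbinate of the level II nose, mostly transitional with some respiratory lining. The treatment field of the 15 ppm 4 w samples states a duration of 5 days, while their titles, descriptions and time tags give 4 w, which was followed.

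Formaldehyde is a water-soluble irritant that reacts with proteins and DNA of the cells it first touches, and the front of the nose takes up most of it. Injured nasal lining sends out chemokines that draw in monocytes and neutrophils, while its surviving cells divide and remake the layer. Under lasting irritation the thin transitional and ciliated lining can be replaced by a layered, keratin-rich squamous one whose outer cells build a cornified envelope.

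Defining markers of epithelium were high throughout. Krt5, Krt8, Krt18, Cdh1 and Epcam had log2 signals between 11.8 and 13.4 on all 8 arrays. Olfactory genes were also present, although the labels state that this lining was discarded. Omp, the olfactory marker protein, had log2 signals of 12.94, 9.46, 10.24 and 12.04 at 13 w, against 12.40, 13.05, 13.05 and 11.01 at 4 w. Bone (Bglap, Ibsp) and red cell (Hbb, Alas2) markers were present as well, while muscle Ckm stayed at 5.63 or below and Acta1 at 7.46 or below. No marker can read as 0 on this scale. RNA integrity averaged 8.90 ± 0.36 at 13 w (SD, n = 3, 1 value not given) and 8.73 ± 0.29 at 4 w (SD, n = 4; exact permutation test, two-sided, p = 0.514, adjusted p = 0.685 over 4 measures).

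A total of 197 of 14217 genes (1.39%) were called at an adjusted p under 0.05, 86 higher (0.605%) and 111 lower (0.781%) at 13 w than at 4 w. The lower genes included chemokines, interferon-induced genes and receptors of macrophages and neutrophils, and were led by the protease gene Mmp3. In bulk cells, fewer cells of a type and less RNA per cell cannot be told apart. The higher genes included Ivl, Cdsn and Tchh, which build the outer squamous layer, together with Endou, Slc15a1, Msx2 and Ccnd2. At 0.7 ppm the same time difference called 13 genes (0.0914%). Differences are given as log2 differences, 13 w minus 4 w, ± SE from a limma fit over all arrays, and all calls are at its adjusted p. Of the calls, 98 were of 1.5-fold or more, 33 higher and 65 lower. The 4 arrays of 13 w did not overlap the 4 of 4 w for 72 of the 86 higher and 90 of the 111 lower genes, against 5.04% of all genes wholly higher and 3.04% wholly lower (8.07% in all), and the median difference of all genes was 0.00278. Since the calls rest on the means of these same arrays, the separation describes the called genes and is not further support for them.

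The count depended on single arrays and on how the spread was estimated. Without 13 w animal 378 it was 26, without 4 w animal 362 it was 43, without 4 w animal 368 it was 103, and without 13 w animal 375 it was 347. A fit on the 8 arrays alone, which estimates the spread from them only, called 1 gene, Mmp3, and gave 1969 genes an unadjusted p under 0.05, 196 of the 197 among them. Of the 58 called genes that the naming rule covers, 16 kept their call whichever of the 8 arrays was left out. These were Mmp3, Ccl7, Ccl4, Ccr1, Lilrb4, Fcer1g, Fcgr1a, Tyrobp, Cd300c2, Lst1, Ifi27, Slc28a2, LOC103691468, Slc15a1, Msx2 and Qrich1. Leaving out animal 378 ended 40 of the 58 calls and leaving out animal 362 ended 33.

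**Figure D1:**
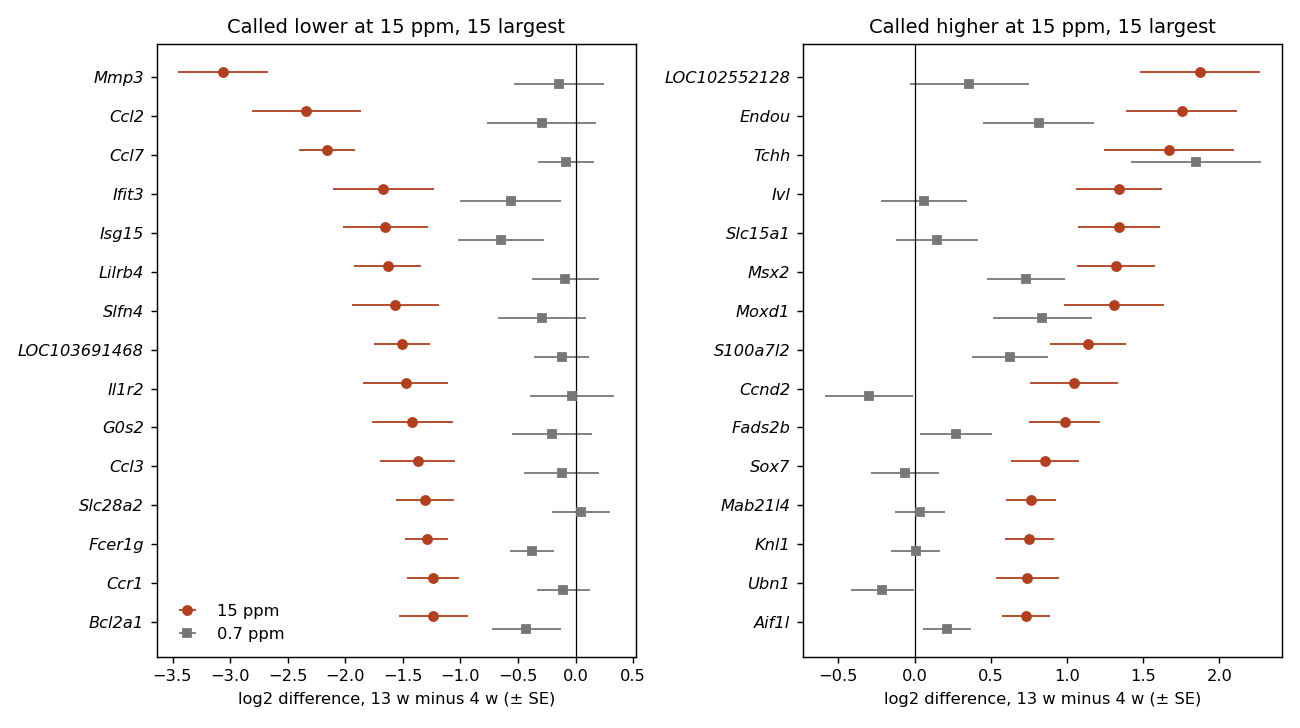
The log2 differences (13 w minus 4 w, bars ± SE) of the 15 genes with the largest called decreases (left) and increases (right) at 15 ppm whose groups did not overlap, with the 0.7 ppm values of the same genes as grey squares. The 15 ppm values run from -3.06 for Mmp3 to 1.87 for LOC102552128, and on the right only Tchh has a 0.7 ppm value (1.85) above its 15 ppm value (1.67).

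Mmp3, stromelysin-1, which digests extracellular matrix and activates other proteases, had the largest difference. Its log2 signals were 5.14, 4.93, 4.73 and 5.02 at 13 w, against 8.65, 7.05, 8.15 and 8.20 at 4 w. The groups lay far apart, and the difference was -3.06 ± 0.39 (adjusted p = 1.34e-06). The 13 w signals were not far above the 0.7 ppm mean of 4.33 at 13 w, near the low end of the scale. In time order the 15 ppm means were 9.99 at 5 d, 8.01 at 4 w and 4.96 at 13 w. Of 40 measured wound proteases and matrix genes, 3 fell and 0 rose, against 0.781% of all genes called lower. The other members that fell were Vcan, a matrix proteoglycan (-1.18 ± 0.25, adjusted p = 0.00738), and Tgfbi, a secreted adhesion protein (-0.60 ± 0.13, adjusted p = 0.0114). Both lost their call without animal 378 or animal 362, and the highest adjusted p in those fits was 0.0935 for Vcan and 0.1 for Tgfbi. Taken singly, 3 of the 5 probe sets of Vcan were called, with values from -1.34 to -0.09. Fst, follistatin, was at -0.52 ± 0.25 and did not pass (adjusted p = 0.329).

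The proximal promoter of Mmp3 held an AP-1 element, the site through which Fos and Jun proteins act. The stretch is shown from RefSeq on GRCr8, 5' to 3' on the gene's strand, with the element TGANTCA in capitals.
Mmp3 (chr8:12925175-12925251, plus strand): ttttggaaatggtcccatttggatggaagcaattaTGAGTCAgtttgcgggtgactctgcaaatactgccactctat
The element began 71 bases before the gene start. It was searched on both strands of the 250 bases before each start and occurred for 568 of 11733 measured genes with a promoter (4.84%). It occurred for 10 of 81 genes called lower outside the interferon list (12.3%) and for 5 of 71 genes called higher (7.04%). Besides Mmp3, Ivl was looked up singly for this element, and its promoter held 0 matches. Fosl1, an AP-1 subunit, had a difference of 0.12 ± 0.21 (adjusted p = 0.838). A match is a description of letters only, and both motifs used here were chosen after values were seen.

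A few chemokines fell strongly. Of 52 measured chemokines and cytokines, 6 fell and 0 rose, against 0.781% of all genes called lower. The median difference of the list was -0.10. Ccl2, which draws monocytes from blood, had log2 signals of 7.07, 7.99, 6.12 and 7.40 at 13 w, against 10.09, 9.43, 9.43 and 8.99 at 4 w. Every 13 w array lay below every 4 w array, and the difference was -2.34 ± 0.47 (adjusted p = 0.00477). Ccl7, a close relative that also attracts monocytes, had 5.24, 5.77, 4.83 and 5.78 at 13 w, against 7.90, 6.98, 8.22 and 7.16 at 4 w. It fell by 2.16 on the log2 scale (SE 0.24, adjusted p = 5.58e-08) without overlap. Ccl3 (-1.37 ± 0.32, adjusted p = 0.0163) and Ccl4 (-1.07 ± 0.19, adjusted p = 0.00105), which attract macrophages and lymphocytes, fell too. Ccr1, a receptor for Ccl3, fell by 1.24 (SE 0.23, adjusted p = 0.00195). Il1r2, a decoy receptor that binds interleukin 1, fell by 1.48 (SE 0.37, adjusted p = 0.0239), and Cxcl3, a neutrophil attractant, by 0.52 (SE 0.12, adjusted p = 0.0142). The groups of Cxcl3 overlapped. Taken singly, 2 of its 5 probe sets were called, with values from -0.61 to -0.005. Il1r2 and Cxcl3 each lost their call in 4 of the one-array-out fits. Without animal 378 the count of members was 2, and without animal 362 or animal 368 it was 3.

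Attractants of activated T cells had large differences that did not pass. Cxcl10 had 6.09, 7.23, 6.03 and 7.09 at 13 w, against 8.67, 7.51, 8.64 and 7.60 at 4 w. These groups did not overlap, yet the adjusted p was 0.162 for a difference of -1.50 ± 0.54. Cxcl11 was at -1.72 ± 0.51 (adjusted p = 0.0742). Cxcl13, a B cell attractant, was at -0.22 ± 0.46, with 13 w arrays from 7.54 to 8.84 and 4 w arrays from 7.44 to 9.68.

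Some interferon-induced genes fell. Of 48 measured members, 9 fell and 0 rose, against 0.781% of all genes called lower. In the list 46 had a negative difference, and the median was -0.45. At 0.7 ppm 43 of the 48 were negative too, with a median of -0.14 and 0 called. In the test of 15 ppm against 0.7 ppm 44 were negative, with a median of -0.34 and 0 called. Isg15, a ubiquitin-like protein that interferon induces strongly, had 9.49, 10.19, 9.25 and 10.68 at 13 w, against 12.13, 10.98, 11.94 and 11.18 at 4 w. The groups did not overlap, and Isg15 fell by 1.65 (SE 0.37, adjusted p = 0.0114). Ifit3, an antiviral protein that interferon induces, had 8.61, 8.96, 7.41 and 9.30 at 13 w, against 10.47, 10.03, 10.75 and 9.71 at 4 w. It fell by 1.67 (SE 0.44, adjusted p = 0.0354), also without overlap. Mx1, an antiviral GTPase (-1.32 ± 0.43, adjusted p = 0.118), and Irf7, a factor that switches on interferon genes (-1.04 ± 0.29, adjusted p = 0.0535), were picked after their values were seen and did not pass.

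Usp18, the protease that removes Isg15 from proteins, fell by 1.29 (SE 0.32, adjusted p = 0.023). Its highest 13 w array, at 8.80, reached above the lowest 4 w array, at 8.71. Bst2, or tetherin, which holds budding virus at the cell surface, fell by 0.97 (SE 0.24, adjusted p = 0.0207). Cmpk2, a nucleotide kinase, fell by 0.86 (SE 0.17, adjusted p = 0.00422). Ifi27 was abundant, and its difference was small but even, with 12.86, 12.84, 12.62 and 12.91 at 13 w, against 13.59, 13.09, 13.18 and 13.49 at 4 w. Its difference of -0.53 ± 0.08 had the smallest adjusted p of the list (5.54e-05).

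Ifi44, Oas1a and Oas1b were also called, lie outside the naming rule and were picked after their values were seen. Ifi44 was at -0.69 ± 0.18 (adjusted p = 0.0281). Oas1a (-1.02 ± 0.28, adjusted p = 0.0465) and Oas1b (-0.94 ± 0.24, adjusted p = 0.0256) encode related sensors of double-stranded RNA, and probe sets may not separate such close copies. Without animal 378 only 1 member was called, and without animal 362 or animal 368 only 2 were.

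The promoters of most of these genes share an interferon-stimulated response element, the site bound by interferon-activated STAT and IRF complexes. The stretches below are from RefSeq on GRCr8, 5' to 3' on each gene's strand, with the element, GAAA and a second GAAA after 2 bases of any kind, or its reverse complement, in capitals. Matches that overlap run together.
Ifi27 (chr6:128355108-128355272, plus strand): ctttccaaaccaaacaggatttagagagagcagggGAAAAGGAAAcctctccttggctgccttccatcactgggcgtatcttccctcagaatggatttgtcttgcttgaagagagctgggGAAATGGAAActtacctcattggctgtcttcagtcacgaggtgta
Bst2 (chr16:18255048-18255133, minus strand): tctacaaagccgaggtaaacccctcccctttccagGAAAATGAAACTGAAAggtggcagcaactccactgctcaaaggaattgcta
Ifit3 (chr1:241527247-241527325, plus strand): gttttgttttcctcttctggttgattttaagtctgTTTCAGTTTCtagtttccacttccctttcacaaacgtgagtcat
Ifi44 (chr2:243303841-243303901, minus strand): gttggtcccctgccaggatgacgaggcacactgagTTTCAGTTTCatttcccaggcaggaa
Oas1a (chr12:41330390-41330465, plus strand): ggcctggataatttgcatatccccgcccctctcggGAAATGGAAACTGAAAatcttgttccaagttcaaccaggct
Oas1b (chr12:41395861-41395946, minus strand): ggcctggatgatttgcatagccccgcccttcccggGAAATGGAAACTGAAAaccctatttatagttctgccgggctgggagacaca
Of the 9 genes, 7 had a promoter in the table and 6 of these held the element (85.7%), the 250 bases before the start being searched on both strands. Cmpk2 held none in this window. The element also occurred for 18 of 32 list members that were not called (56.2%), for 5 of 81 other genes called lower (6.17%), for 0 of 71 called higher, and for 311 of 11733 measured genes (2.65%). Ifit3 has its match 44 bases before the start and Ifi44 26 bases before it, and the runs of Oas1a and Oas1b are alike around it.

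Some genes of macrophages and dendritic cells fell. Of 36 measured members, 19 had 13 w arrays wholly below the 4 w arrays, against 3.04% of all genes. In the list 9 fell and 0 rose, against 0.781% of all genes called lower. The other 27 did not pass, among them Csf1r, a growth factor receptor of macrophages (-0.43 ± 0.17, adjusted p = 0.207), and Cd68, a macrophage lysosome protein (-0.56 ± 0.17, adjusted p = 0.0918), both picked after their values were seen. The mean signal of the list ran from 7.93 to 8.25 over the 13 w arrays, against 8.38 to 8.81 over the 4 w arrays. These ranges do not overlap, and the 0.7 ppm means of the list were 8.03 at 13 w and 8.21 at 4 w. Fcer1g, the signalling chain shared by several Fc receptors, had 9.57, 10.28, 9.53 and 10.22 at 13 w, against 11.40, 10.87, 11.50 and 11.00 at 4 w. It fell by 1.29 (SE 0.19, adjusted p = 2.54e-05) without overlap.

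Fcgr1a, the high-affinity receptor for IgG, had 7.65, 8.38, 7.74 and 8.11 at 13 w, against 9.38, 8.74, 9.76 and 8.87 at 4 w. The groups were separate, and Fcgr1a fell by 1.22 (SE 0.17, adjusted p = 1.18e-05). Tyrobp, an adaptor of activating myeloid receptors, fell by 0.95 (SE 0.18, adjusted p = 0.00364), and Clec7a, the receptor for fungal glucan, by 0.84 (SE 0.18, adjusted p = 0.00723). Lyz2, lysozyme, had 11.98, 12.58, 11.40 and 12.34 at 13 w, against 13.66, 12.96, 12.97 and 12.95 at 4 w. It fell by 1.06 (SE 0.23, adjusted p = 0.00856), and 1 of the 4 w arrays stood above the other 3. Cd74, the chaperone of MHC class II, fell by 0.55 (SE 0.13, adjusted p = 0.0194) and was the only called gene among 10 measured class II members. Of these 10, 9 had a negative difference, with a median of -0.48, and limma gave 8 an unadjusted p under 0.05. At 0.7 ppm 9 were negative as well, with a median of -0.13 and 0 at that level. The dose test called 0 of the 10. For 5 of the 10 the 13 w arrays of 15 ppm lay wholly below the 4 w arrays, against 3.04% of all genes. Without animal 378 the count of macrophage members was 3 and without animal 362 it was 4, while Fcer1g, Fcgr1a and Tyrobp stayed called in each one-array-out fit.

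Neutrophil genes gave 3 calls of 22 measured, all lower, against 0.781% of all genes called lower. Lilrb4, an inhibitory receptor of myeloid cells, had 6.82, 7.94, 6.40 and 7.62 at 13 w, against 8.81, 8.75, 9.31 and 8.43 at 4 w. It fell by 1.63 (SE 0.29, adjusted p = 0.00105) without overlap. Cybb, the core of the NADPH oxidase that makes superoxide, fell by 0.78 (SE 0.17, adjusted p = 0.00992), and Il1r2 was the third. S100a9, part of calprotectin, had 10.53, 11.70, 9.80 and 11.40 at 13 w, against 12.51, 12.26, 12.78 and 11.90 at 4 w. Its groups were separate, but its difference of -1.51 ± 0.50 did not pass (adjusted p = 0.12). The count was 1 without animal 378 or animal 362, 2 without animal 365 or animal 368, and 5 without animal 369.

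Other myeloid genes among the 15 largest decreases were Bcl2a1, a survival factor of white cells (-1.24 ± 0.30, adjusted p = 0.0204), and Slfn4, a schlafen gene of macrophages in mice (-1.57 ± 0.38, adjusted p = 0.02). Of the 2 probe sets of Slfn4, the other had a value of 0.03. G0s2, which blocks fat breakdown, fell by 1.42 (SE 0.35, adjusted p = 0.0228), and Slc28a2, a nucleoside transporter, by 1.31 (SE 0.25, adjusted p = 0.00364). LOC103691468 fell by 1.51 (SE 0.24, adjusted p = 0.000131) and has no name in the tables used, and its other probe set was at -0.27. Bcl2a1 lost its call without animal 378 or animal 362, with an adjusted p up to 0.189. Slfn4 and G0s2 each lost theirs in 4 of the 8 one-array-out fits, with adjusted p up to 0.163 for Slfn4 and 0.266 for G0s2.

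Lymphocyte genes gave 1 call. Of 40 measured T, NK and cytotoxic genes, 1 fell and 0 rose, against 0.781% of all genes called lower. This 1 call is not read as a result about the list. The median was -0.25, and 17 of the 40 stayed below 6 on all 8 arrays. The called gene was Xcl1, a chemokine made by T and NK cells (-1.15 ± 0.25, adjusted p = 0.00917), and it was not called without animal 378 or animal 362. Cd8a was at -0.50 ± 0.20 (adjusted p = 0.231) and Gzmb at -0.67 ± 0.24 (adjusted p = 0.155). Of 17 measured B and plasma cell genes limma called 0, with a median of 0.00 and 2 at an unadjusted p under 0.05.

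**Figure D2:**
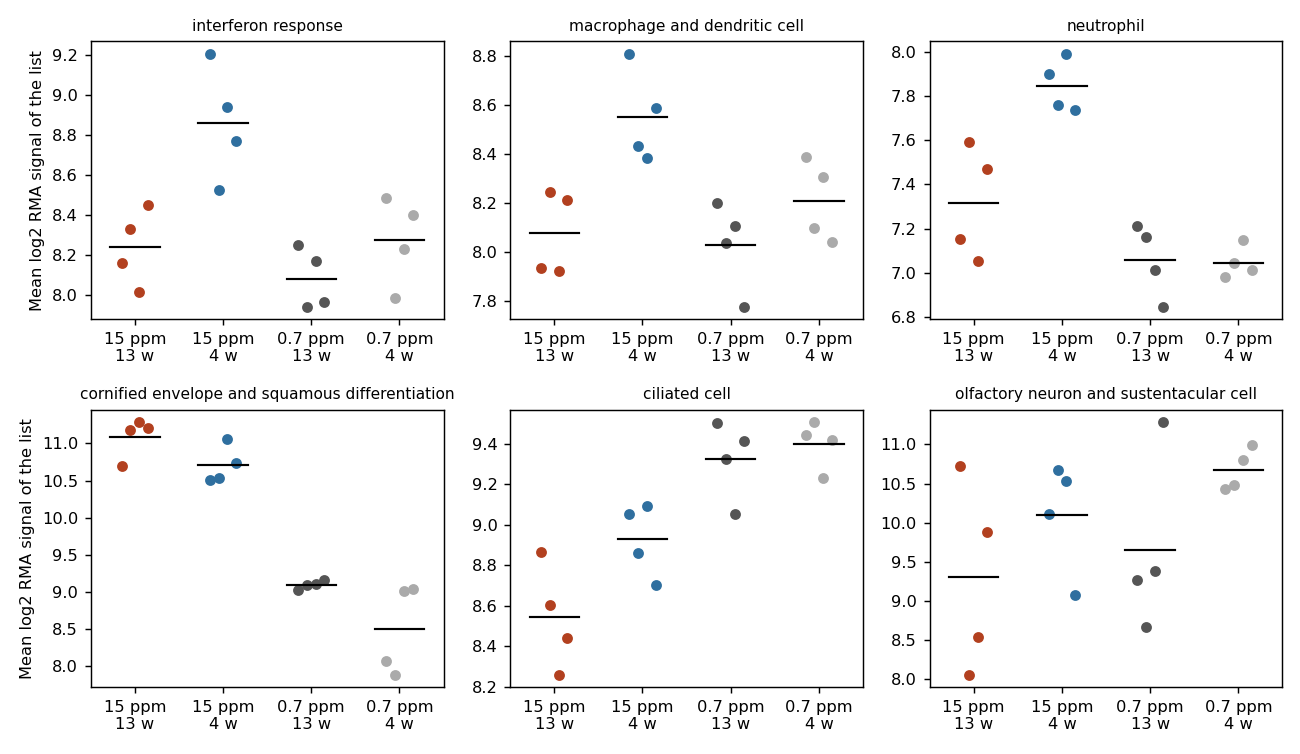
Mean log2 signal of 6 gene lists on each array (points) with group means (lines), for 15 ppm at 13 w and 4 w and for 0.7 ppm at 13 w and 4 w. At 15 ppm the 13 w arrays lie below all 4 w arrays for the interferon, macrophage and neutrophil lists, and overlap them for the squamous, ciliated and olfactory lists.

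Markers of other cell types are set beside these genes here. The mean of the 23 measured olfactory genes ran from 8.05 to 10.72 at 13 w, against 9.07 to 10.67 at 4 w, and the median difference of the list was -0.96 at 15 ppm and -1.26 at 0.7 ppm. Within it 1 gene was called, against 0.781% of all genes called lower. This gene was Cyp2a3, a nasal P450 (-0.46 ± 0.12, adjusted p = 0.0383), and it lost its call in 6 of the 8 one-array-out fits. With the olfactory mean as a covariate, chosen after the data were seen, 314 genes were called, 95 higher and 219 lower, with 16 macrophage and 18 interferon members among the lower. Of 43 fibroblast, 24 cartilage and bone, 23 endothelial, 21 muscle and 5 red cell genes measured, limma called 0 in either direction. Their list medians lay between -0.16 and 0.00, and 2 fibroblast genes and 0 of the others had an unadjusted p under 0.05.

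Few squamous genes passed the test, although most had a positive difference. Of 28 measured genes of the cornified envelope and squamous differentiation 2 rose and 0 fell, against 0.605% of all genes called higher. In the list 26 had a positive difference, with a median of 0.45. At 0.7 ppm 25 of the 28 were positive, the median was 0.35, and limma called 0, with 9 at an unadjusted p under 0.05. The mean of the list differed by 0.384 at 15 ppm and by 0.598 at 0.7 ppm. In the test of 15 ppm against 0.7 ppm the list median was -0.079, with 12 positive, 16 negative and 0 called. A larger rise of the list at 15 ppm was thus not shown. At 15 ppm the list mean ran from 10.693 to 11.285 at 13 w, against 10.505 to 11.065 at 4 w. The list mean at 0.7 ppm ran from 9.03 to 9.17 at 13 w, against 8.07, 7.88, 9.01 and 9.04 at 4 w, so only 2 of the 4 w arrays lay clearly below the 13 w arrays there. Ivl, involucrin, the scaffold of the envelope, had 6.80, 7.10, 8.73 and 7.64 at 13 w, against 6.36, 5.83, 6.79 and 5.93 at 4 w. The lowest 13 w array was only just above the highest 4 w array, and Ivl rose by 1.34 (SE 0.28, adjusted p = 0.00723). At 0.7 ppm its difference was 0.06, with means of 4.64 at 13 w and 4.58 at 4 w.

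Cdsn, corneodesmosin, the adhesive protein of the outermost cells, had 8.18, 8.90, 9.02 and 8.73 at 13 w, against 7.50, 7.32, 8.18 and 7.71 at 4 w. It rose by 1.03 (SE 0.21, adjusted p = 0.00422), and the groups met at 8.18. Without animal 378 neither gene was called, with an adjusted p of 0.15 for Ivl and 0.0514 for Cdsn. Tchh, trichohyalin, which ties keratin filaments together, had 8.65, 9.04, 9.11 and 8.60 at 13 w, against 6.89, 6.68, 7.96 and 7.20 at 4 w. It rose by 1.67 (SE 0.42, adjusted p = 0.0273) without overlap and was at 1.85 at 0.7 ppm (adjusted p = 0.051). The test of the difference between those doses gave -0.18 (adjusted p = 0.959), and Tchh lost its call at 15 ppm in 5 of the 8 one-array-out fits.

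Other squamous genes of interest did not pass. Sprr1b, a small proline-rich envelope protein, averaged 12.97 ± 0.17 at 13 w and 12.96 ± 0.27 at 4 w (SD, n = 4 each), against 6.75 at 13 w and 6.73 at 4 w for 0.7 ppm. Krt10, Sprr3 and Loricrin were picked after their values were seen. Krt10, a keratin of outer squamous cells, was at 1.00 ± 0.64 (adjusted p = 0.488), and Sprr3 at 0.51 ± 0.65 (adjusted p = 0.771). Loricrin, the main envelope protein of skin, had 8.65, 10.44, 10.71 and 10.34 at 13 w, against 8.08, 8.27, 8.68 and 8.48 at 4 w. Here 3 of the 13 w arrays stood well above the rest, and the difference of 1.66 ± 0.53 did not pass (adjusted p = 0.104).

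Several of these genes are neighbours. In RefSeq gene order on rat chromosome 2, S100a9, S100a7l2, Loricrin, Sprr1b, Sprr3, Sprr1a, Ivl, Kprp and Tchh all fall between positions 812 and 869, in the epidermal differentiation complex. Within this stretch S100a7l2 rose by 1.14 (SE 0.25, adjusted p = 0.00924), and Kprp, a proline-rich keratinocyte protein picked after its value was seen, by 0.71 (SE 0.15, adjusted p = 0.0077). Its neighbour S100a9, described above among neutrophil genes, had a difference of the opposite sign. Without animal 378 or animal 362 S100a7l2 was not called (adjusted p up to 0.098). At 0.7 ppm S100a7l2 was at 0.63 (adjusted p = 0.369), and the dose test gave 0.51 (adjusted p = 0.641). Its 15 ppm means, 6.075 at 13 w and 4.938 at 4 w, lay toward the low end of the scale.

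Among basal keratins and junction genes, limma called 0 of 27 measured (5 at an unadjusted p under 0.05). Of the 27, 26 had a positive difference, with a median of 0.19, against 21 and 0.14 at 0.7 ppm. Krt5 averaged 13.10 ± 0.13 at 13 w and 12.86 ± 0.20 at 4 w, and Krt14 averaged 14.29 ± 0.09 at 13 w and 14.19 ± 0.13 at 4 w (SD, n = 4 each). Neither difference passed, with adjusted p of 0.49 for Krt5 and 0.703 for Krt14. Ciliated cell genes leaned the other way. All 27 measured had a negative difference, with a median of -0.38, and limma called 0, with 13 at an unadjusted p under 0.05. At 0.7 ppm that median was -0.05, with 0 at that level. Foxj1, the master regulator of motile cilia, had 9.96, 9.76, 9.33 and 9.57 at 13 w, against 10.36, 9.91, 10.39 and 9.84 at 4 w, with overlap (-0.47 ± 0.17, adjusted p = 0.159).

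Of 32 measured secretory genes, 2 fell and 0 rose, against 0.781% of all genes called lower. One was Lyz2, described above, which is also in the macrophage list. The other was Bpifb1, a secreted airway defence protein (-1.18 ± 0.32, adjusted p = 0.0401), at -0.83 at 0.7 ppm. Bpifb1 lost its call in 6 of the 8 one-array-out fits.

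Endou, an RNA-cutting enzyme, had the largest rise of a gene with a full name. Its log2 signals were 8.15, 9.20, 9.49 and 8.64 at 13 w, against 6.70, 6.65, 7.91 and 7.20 at 4 w. The groups were separate, and Endou rose by 1.75 (SE 0.36, adjusted p = 0.00685), while at 0.7 ppm it was at 0.82. LOC102552128, which has no name in the tables used, had 4.49, 6.23, 6.77 and 7.17 at 13 w, against 4.31, 4.19, 4.35 and 4.31 at 4 w. Its rise of 1.87 (SE 0.39, adjusted p = 0.00723) came from 3 of the 4 arrays of 13 w, the other being close to the 4 w level. Both lost their call without animal 378, with an adjusted p of 0.0685 for Endou and 0.0677 for LOC102552128.

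Slc15a1, the peptide transporter PEPT1, had 6.74, 7.55, 7.25 and 6.75 at 13 w, against 5.42, 5.42, 6.35 and 5.75 at 4 w. It rose by 1.34 (SE 0.27, adjusted p = 0.00422) without overlap, against 0.15 at 0.7 ppm. Msx2, a homeobox factor of epithelial appendages, rose by 1.32 (SE 0.26, adjusted p = 0.00368). Of its 3 probe sets 2 had that sign and 1 was called, with values from -0.03 to 1.32. Moxd1, a monooxygenase-like protein, rose by 1.31 (SE 0.33, adjusted p = 0.0238), and Fads2b, a fatty acid desaturase, by 0.98 (SE 0.23, adjusted p = 0.018). Sox7, a transcription factor, rose by 0.86 (SE 0.22, adjusted p = 0.0321). Msx2 and Moxd1 went against this at 10 ppm, with values of -0.55 and -0.75 that did not pass. At 6 ppm Msx2 was called higher, at 1.07 (adjusted p = 0.04). It was at 0.73 at 0.7 ppm and -0.98 at 2 ppm, and neither passed. Moxd1 was at 0.84, -0.25 and 0.51 at 0.7, 2 and 6 ppm, and none passed.

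Smaller increases were those of Mab21l4 (0.76 ± 0.17, adjusted p = 0.00856), Aif1l (0.73 ± 0.16, adjusted p = 0.00848) and Knl1, a kinetochore scaffold (0.75 ± 0.16, adjusted p = 0.00831). Ubn1, a histone chaperone subunit, rose by 0.74 (SE 0.21, adjusted p = 0.0497), but its other probe set was at -0.03. Moxd1, Fads2b, Sox7, Mab21l4, Aif1l, Knl1 and Ubn1 lost their call in 1 to 6 of the one-array-out fits, Ubn1 in 6 and Sox7 in 5.

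Cell cycle inhibitors and their partners gave 2 calls of 16 measured, both higher, against 0.605% of all genes called higher. Ccnd2, cyclin D2, which drives entry into the cycle and does not inhibit it, had 10.91, 10.68, 11.87 and 11.38 at 13 w, against 10.46, 10.44, 9.47 and 10.28 at 4 w. It rose by 1.05 (SE 0.29, adjusted p = 0.0489), just inside the threshold, and lost its call in 6 of the 8 one-array-out fits. Cdkn2b, the inhibitor p15, had 7.29, 7.47, 7.59 and 7.71 at 13 w, against 7.04, 7.12, 6.94 and 7.09 at 4 w. It rose by 0.47 (SE 0.11, adjusted p = 0.0115) without overlap, and lost its call in 4 of those fits.

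Cdkn2a, which encodes p16 and Arf and lies near Cdkn2b in gene order on chromosome 5, split the 13 w animals. Its signals were 9.11, 9.32, 10.39 and 10.53 at 13 w, against 9.09, 9.01, 9.16 and 9.03 at 4 w. Animals 378 and 379 stood above all others, animals 375 and 377 were near the 4 w level, and the difference of 0.77 ± 0.24 did not pass (adjusted p = 0.1). In time order the 15 ppm means were 5.00 at 5 d, 9.07 at 4 w and 9.84 at 13 w, against 0.7 ppm means of 4.84 at 4 w and 4.80 at 13 w. In this gene the 4 w arrays thus lay far from the 5 d arrays, although the treatment field gives both a duration of 5 days. At 10 ppm Cdkn2a rose between 4 w and 13 w by 2.15 (adjusted p = 6.8e-08).

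**Figure D3:**
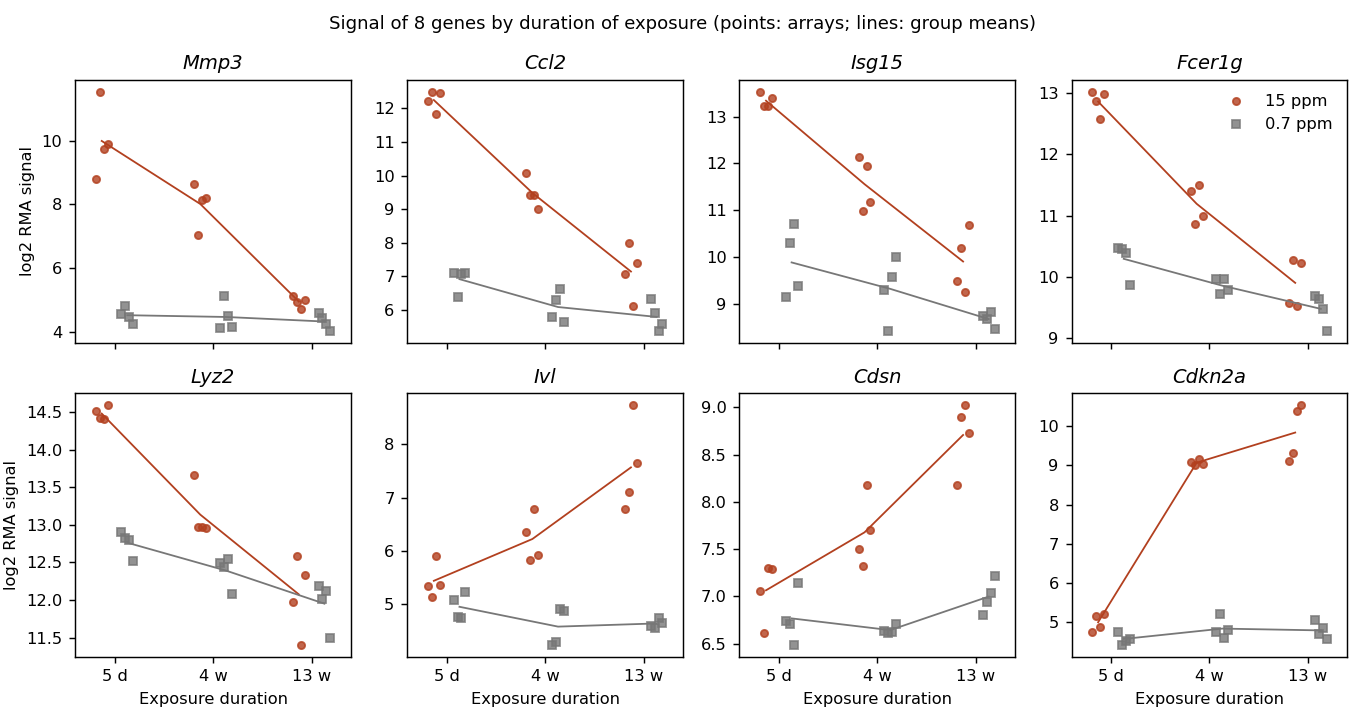
Log2 signal of 8 genes on each array by exposure time (5 d, 4 w, 13 w), for 15 ppm (red points) and 0.7 ppm (grey squares), with lines through the group means. At 15 ppm the means of Mmp3, Ccl2, Isg15, Fcer1g and Lyz2 are lower at each later time, those of Ivl and Cdsn are higher at each later time, and Cdkn2a goes from 5.00 to 9.07 to 9.84.

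The fixed lists of cell division, growth and oxidant defence held no called gene. Outside the division lists, Knl1 and Ccnd2, described above, were called. So were 2 other division genes picked after their values were seen, Cdc27 (0.50 ± 0.13, adjusted p = 0.0261) and Ercc6l (0.38 ± 0.09, adjusted p = 0.0243). Of 53 mitosis and 46 S phase genes measured limma called 0, with medians of 0.07 and 0.05, and 3 and 2 had an unadjusted p under 0.05. Against 15 and 13 at 0.7 ppm, 41 and 28 of these genes had a positive difference at 15 ppm. Mki67, a marker of dividing cells, averaged 9.81 ± 0.20 at 13 w and 9.78 ± 0.13 at 4 w, and Top2a averaged 9.18 ± 0.09 at 13 w and 9.11 ± 0.11 at 4 w (SD, n = 4 each). Of 38 growth factor and immediate early genes limma called 0, and 4 had an unadjusted p under 0.05. Areg, amphiregulin, averaged 10.65 ± 0.33 at 13 w and 10.43 ± 0.28 at 4 w, against 5.45 at 13 w and 5.20 at 4 w for 0.7 ppm. Areg was therefore high at 15 ppm at both times.

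Of 39 Nrf2 targets and glutathione genes, 28 p53 targets, 33 heat shock genes and 33 genes of aldehyde oxidation measured, limma called 0, and 2, 5, 2 and 3 of them, in that order, had an unadjusted p under 0.05. Hmox1 was at 0.19 ± 0.22 (adjusted p = 0.743), Srxn1 at 0.28 ± 0.18 (adjusted p = 0.486) and Cdkn1a at 0.09 ± 0.14 (adjusted p = 0.802). Adh5, the enzyme that oxidises glutathione-bound formaldehyde, averaged 11.77 ± 0.14 at 13 w and 11.93 ± 0.08 at 4 w (SD, n = 4 each), with an adjusted p of 0.508. Aldh2, the mitochondrial aldehyde dehydrogenase, averaged 12.66 at both times. Among 44 genes of crosslink repair and checkpoints 1 rose, Lig3, a DNA ligase (0.26 ± 0.06, adjusted p = 0.0228). Across all genes 0.605% were called higher, so this 1 call is not read as a result about the list.

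Single calls came from several other lists. Across all genes 0.605% were called higher and 0.781% lower, so these are values of single genes and not results about the lists. Clock, a core clock factor, rose by 0.30 (SE 0.08, adjusted p = 0.0493), Utp15, a ribosome assembly factor, by 0.38 (SE 0.10, adjusted p = 0.0339) and Pdk1, a brake on pyruvate use, by 0.40 (SE 0.09, adjusted p = 0.0106). Bnip3, a mitochondrial death and mitophagy protein, fell by 0.42 (SE 0.10, adjusted p = 0.0228), and Nupr1, a stress-induced nuclear protein, by 0.69 (SE 0.18, adjusted p = 0.0308). Each of these, and Lig3, lost its call in 3 or more of the 8 one-array-out fits. Of 41 measured ribosome biogenesis genes, 38 had a positive difference, with a median of 0.09 and 0.02 at 0.7 ppm. At 15 ppm 8 of them had an unadjusted p under 0.05, and Utp15 was the only call. In cholesterol synthesis 20 of 21 measured genes had a positive difference, with a median of 0.15 and -0.13 at 0.7 ppm, and limma called 0 (8 at an unadjusted p under 0.05). Of 45 respiratory chain, 17 gland and 47 Notch, Wnt, retinoid and BMP genes limma also called 0, and 4, 0 and 13 had an unadjusted p under 0.05. Egfr was at 0.22 ± 0.13 and Dbp, a clock output gene, at -0.29 ± 0.14, and neither passed.

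**Figure D4:**
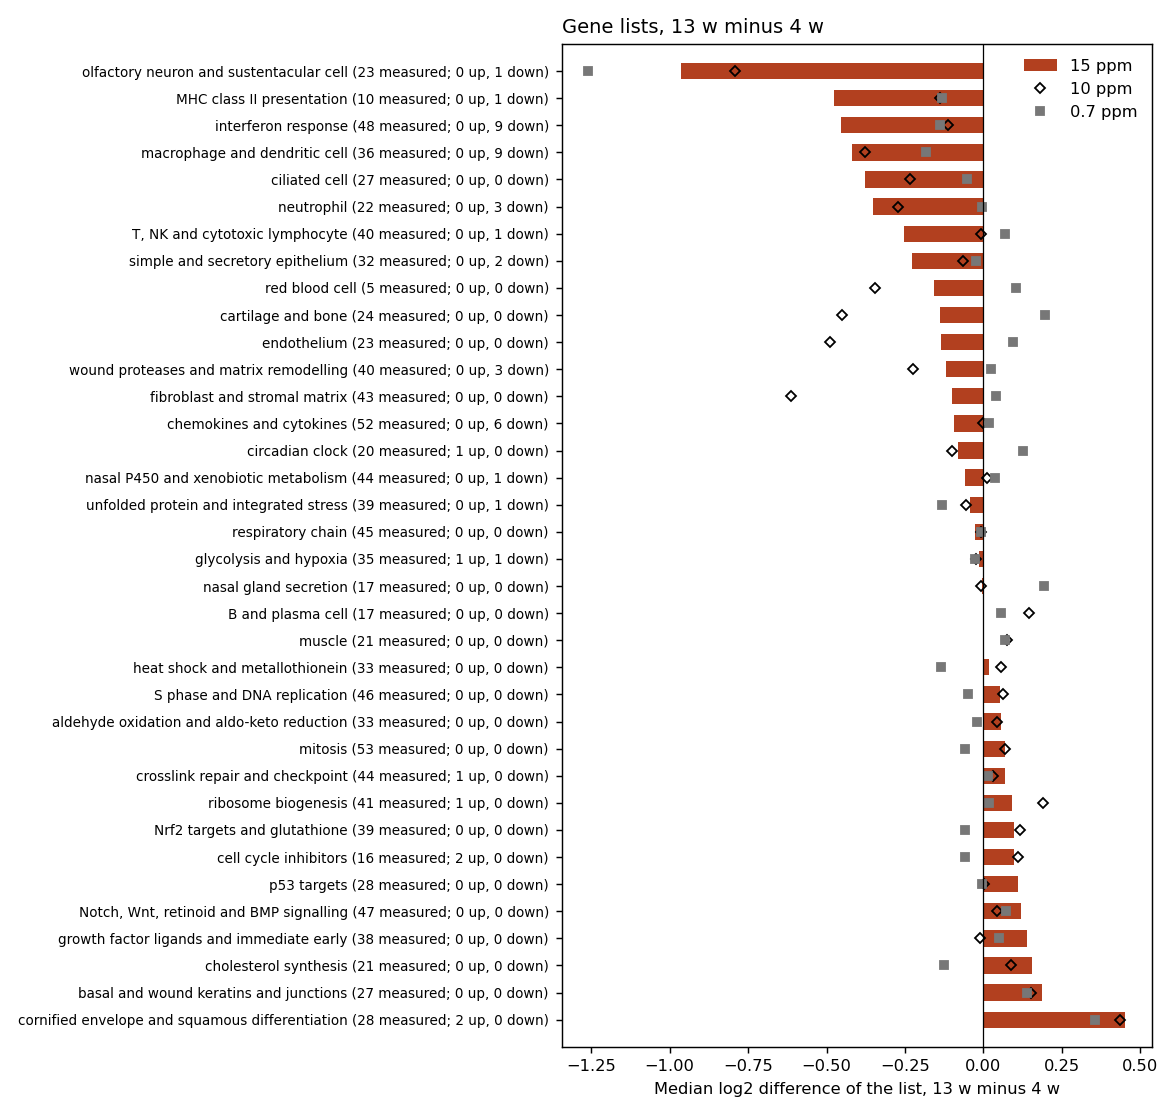
Median log2 difference, 13 w minus 4 w, of the 36 gene lists at 15 ppm (bars), 10 ppm (open diamonds) and 0.7 ppm (grey squares), with the number of members measured and called higher (up) or lower (down) at 15 ppm. Interferon and macrophage lists each have 9 members called lower, against 0.781% of all genes. The olfactory list has the lowest median at both 15 ppm (-0.96) and 0.7 ppm (-1.26).

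The same time difference was then read at the other doses, whose arrays are separate animals. At 10 ppm, 109 of the 111 genes that fell at 15 ppm had a negative difference (98.2%, against 47.9% of all genes), their median was -0.43, and 20 were called lower there. Across all genes 30 (0.211%) were called lower at 10 ppm. At 0.7 ppm 78 of the 111 were negative (70.3%, against 44.6%), at 2 ppm 66 (59.5%, against 48.9%) and at 6 ppm 28 (25.2%, against 39.3%). The agreement in sign was thus closest at 10 ppm, and at 6 ppm fewer of the genes were negative than among all genes. The lists did not all match at 10 ppm. Macrophage genes gave 5 lower calls there (median -0.38), while interferon genes gave 0 (median -0.11). Fibroblast and endothelial lists had medians of -0.61 and -0.49 at 10 ppm, against -0.10 and -0.13 at 15 ppm. Mmp3 was at -3.27 at 10 ppm (adjusted p = 1.82e-07), 0.26 at 6 ppm and -0.14 at 0.7 ppm. Fcer1g was at -1.06 at 10 ppm (adjusted p = 0.002), 0.16 at 6 ppm and -0.38 at 0.7 ppm.

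Of the 86 genes that rose at 15 ppm, 70 had a positive difference at 10 ppm (81.4%, against 52.1% of all genes), of which 3 were called, against 0.0914% of all genes called higher there. At 6 ppm 63 were positive (73.3%, against 60.7%) with 2 called (0.246% of all genes), at 2 ppm 35 (40.7%, against 51.1%) and at 0.7 ppm 60 (69.8%, against 55.4%). Clock was among those called at 10 ppm, at 0.37 (adjusted p = 0.0294).

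**Figure D5:**
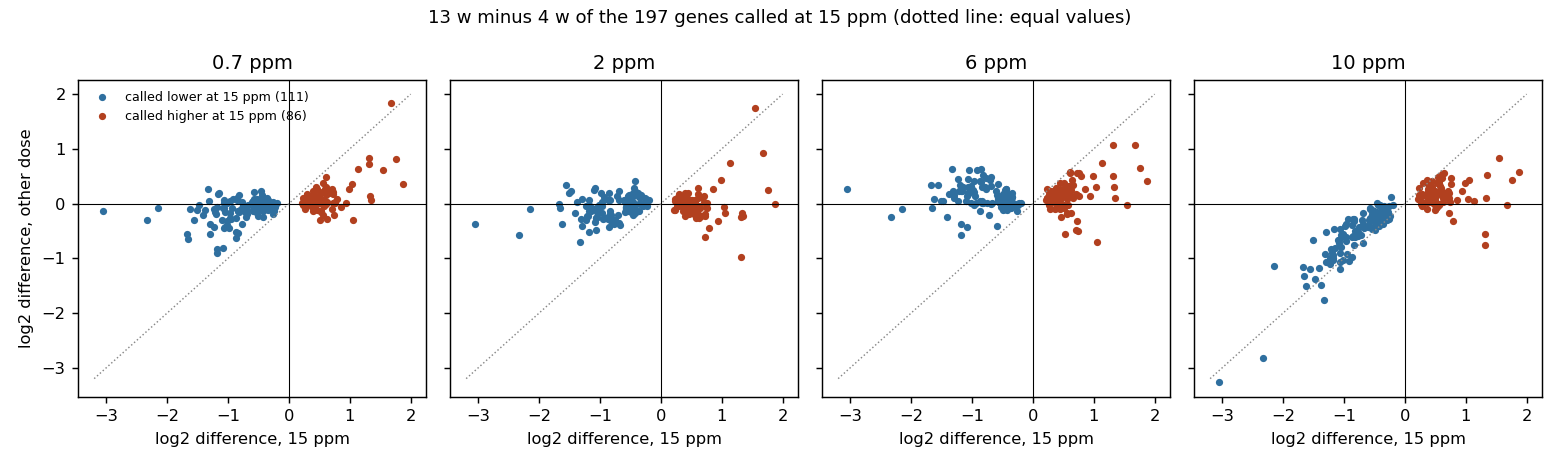
Log2 differences, 13 w minus 4 w, of the 197 genes called at 15 ppm (x axis) against the same difference at 0.7, 2, 6 and 10 ppm (y axis), genes called lower in blue and higher in red. At 10 ppm 109 of 111 blue points lie below 0, while at 6 ppm 28 do.

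A direct test of the time difference at 15 ppm against that at 0.7 ppm called 9 genes (0.0633%), 2 with a positive (0.0141%) and 7 with a negative value (0.0492%), so for most genes called at 15 ppm a difference from 0.7 ppm was not shown. Mmp3 was at -2.92 ± 0.55 (adjusted p = 0.0113) and Ccl7 at -2.08 ± 0.34 (adjusted p = 0.00207). Cd300c2, a myeloid receptor gene, was at -1.14 ± 0.24 and Lst1, a leukocyte gene, at -0.98 ± 0.21 (both adjusted p = 0.0279). Cd300c2 had 7.07, 7.41, 7.13 and 7.48 at 13 w, against 8.71, 8.39, 8.19 and 8.09 at 4 w, without overlap. Qrich1 was at 0.92 ± 0.19 (adjusted p = 0.0279) and was itself called higher at 15 ppm, at 0.63 ± 0.14. The other 4 genes, Nkx2-3, Cav3, Ccdc179 and Bri3bp, were not called at 15 ppm, and the first 3 of them were called higher at 0.7 ppm. Without 0.7 ppm 13 w animal 260 the count was 18 and without 15 ppm 4 w animal 365 it was 14. It was 3 without 0.7 ppm 13 w animal 258, and 4 or 5 without 0.7 ppm animals 257, 259, 245 and 250 or 15 ppm animals 375 and 368.

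At 0.7 ppm 10 genes were called higher (0.0703%) and 3 lower (0.0211%). None of the 13 was called at 15 ppm. Dpysl3 fell by 1.60 at 0.7 ppm (adjusted p = 0.018) and was at -0.54 at 15 ppm, while Taok1 fell by 0.53 (adjusted p = 0.0457) and was at 0.11 at 15 ppm. Sim1 and Sds rose at 0.7 ppm by 0.33 and 0.46 (adjusted p = 0.00796 and 0.0177) and were at 0.02 and -0.06 at 15 ppm. Krt24, a keratin, and Tnnt1, a troponin of muscle, were picked after their values were seen. Krt24 rose by 2.04 at 0.7 ppm (adjusted p = 0.0494) and was at 1.05 at 15 ppm, and Tnnt1 rose by 1.28 (adjusted p = 0.0457) and was at 0.47. The count was 62 without 13 w animal 260, 13 without animal 259, and 3 to 6 without any other 0.7 ppm array of these times.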

How the data were processed

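The authors deposited log2 signals, which per the submitters' processing notes came from GCOS 1.0 and RMA, and these were used without further scaling. Of 31099 probe sets, 20826 had 1 gene symbol in the platform annotation, 436 had several, 9780 had none and 57 were array controls. Only the first kind was used, with symbols updated through Entrez IDs for 20758, and each of 14217 genes was represented by its probe set of highest average signal. In R 4.3.3, limma 3.58.1 estimated 1 mean for each of 17 groups from all 68 arrays (lmFit, eBayes, 51 residual and 2.85 prior degrees of freedom), with P values adjusted by Benjamini-Hochberg over all genes of a contrast. Calls are at an adjusted p under 0.05. The median SE was 0.104, and the 4 animals of a group limit the precision. The labels give each array its own animal, and nothing states how cages or chambers were shared.

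Named genes are called genes without overlap between groups, a higher group mean of at least 6 and the 15 largest differences of each sign. They also include up to 5 called members of each of 36 gene lists (1165 of 1364 entries measured), the genes of the dose test and of 0.7 ppm, and fixed single genes. The comparison, lists and rule were chosen with earlier results of these data known. Promoters came from RefSeq (GRCr8). The alternatives tried are given with their effect in the closing section.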

Additional observations from a re-analysis of the deposited data

Results flagged for a closer look

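Among 182 group values of the 91 named genes, 8 had 1 array apart from the other 3 of its group, and chance alone sets apart about 1 in 20 groups. In the 13 w group, animal 375 was the lowest for Bri3bp (8.59), Areg (10.2), Fosl1 (9.01) and Cdkn1a (11.1), and animal 378 was the highest for Taok1 (8.42). In the 4 w group, animal 362 was the highest for Lyz2 (13.7) and the lowest for Ccdc179 (4.28), and animal 368 was the highest for Cdkn1a (11.8).

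The time difference at 15 ppm differed from that at 0.7 ppm for 9 genes by the test of that difference. The values were -2.92 for Mmp3, -2.08 for Ccl7, -1.14 for Cd300c2, -0.98 for Lst1, -0.63 for Nkx2-3, -0.62 for Cav3, -0.58 for Ccdc179, 0.60 for Bri3bp and 0.92 for Qrich1. Nkx2-3, Cav3 and Ccdc179 had group means between 4.20 and 5.66 at both doses and times, near the low end of the scale.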

How the results depend on the processing

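The 15 ppm count of 197 calls was 180 to 261 with centred arrays, loess, a filter on low genes, other probe set rules, the 4 w and 13 w arrays only, another variance prior or the actin 3' minus 5' difference. It was 1 on the 8 arrays alone, 918 with array weights, 126 with RNA integrity as a covariate (arrays without a value left out), 98 at 1.5-fold, 48 at an adjusted p under 0.01, 314 with the olfactory mean (added after the data were seen), and 26 to 347 without 1 array. The split was 86 higher to 111 lower, against 123 to 110 with the mean of all probe sets and 145 to 116 with every probe set. The 0.7 ppm count of 13 was 6 with centring, loess or RNA integrity, 2 with the filter or at 0.01, 25 and 27 with the other probe set rules, 0 on its 8 arrays alone, 3 on 4 w and 13 w arrays or at 1.5-fold, 460 with array weights, 5 with the trended prior, 26 with actin and 3 to 62 without 1 array. The dose test's 9 genes became 22 and 15 with the other probe set rules, 1 on its own arrays alone or at 0.01, 104 with array weights, 15 with the olfactory mean and 3 to 18 without 1 array. The cause of these shifts was not tested, except that stricter thresholds call fewer genes by construction. Signs turned only for genes near 0 that were not called. Sprr1b was at -0.026 with loess, -0.031 with RNA integrity, -0.0046 with the olfactory mean and -0.12 to 0.091 without 1 array, and Mki67 at -0.0040 with the olfactory mean and -0.050 to 0.11 without 1 array. Aldh2 was at -0.038 with array weights, -0.014 with actin, -0.093 with the olfactory mean and -0.049 to 0.061 without 1 array. Without 1 array Cxcl13 ran from -0.59 to 0.16 and Sim1 from -0.037 to 0.053. Of the other named-gene values, 1561 kept their sign and side of the threshold, 225 fell below it and 9 passed it. No paired analysis was possible because the compared groups share no animal numbers. Signal near the low end of the scale limits the size of falls such as that of Mmp3.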
